A study of Arabidopsis thaliana with 16 samples.

Results

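The chloroplast genome of Arabidopsis thaliana encodes subunits of the NDH complex, and 10 of these genes are described here, chosen as the ndh symbols that the array's platform annotation assigns to a single chloroplast gene. They are ndhA, ndhC, ndhD, ndhE, ndhF, ndhG, ndhH, ndhI, ndhJ and ndhK, each read by 1 probe set, among 13356 genes named by single-gene probe sets in the series. The probe set for ndhB was assigned to both of its 2 chloroplast copies and was therefore not a member. The rule used the annotation only and no measured value, but it was set with earlier results of these data known.

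The NDH complex sits in the thylakoid membrane, takes electrons from ferredoxin and passes them to plastoquinone while pumping protons, which makes it one of the routes of cyclic electron flow around photosystem I. It is related to respiratory complex I. The products of ndhA, ndhC, ndhD, ndhE, ndhF and ndhG belong to its membrane arm, those of ndhH, ndhI, ndhJ and ndhK to the arm that faces the stroma, and further subunits and assembly factors come from nuclear genes. Chloroplast genes are read as long transcripts that span several genes and are then cut, edited and trimmed, so neighbours often share a precursor. In the RefSeq gene order, ndhJ, ndhK and ndhC lie side by side between rps4 and atpE. The gene ndhF lies beside rpl32, and the order ndhD, psaC, ndhE, ndhG, ndhI, ndhA, ndhH forms the second run of neighbours.

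The study profiled total RNA of whole plants without roots on 16 Affymetrix ATH1 arrays. Plants were the Landsberg erecta accession (Ler) or the phyB-1 mutant, which lacks the red-light receptor phytochrome B and whose labels name a single stock. Each genotype was labelled 16 °C or 22 °C and 4 h or 10 h, which gives 8 groups of 2 arrays: Ler at 16 °C and 4 h, Ler at 16 °C and 10 h, Ler at 22 °C and 4 h, Ler at 22 °C and 10 h, and the same for phyB-1. The event from which the hours count was not stated. All samples carry the same growth text: seeds were kept at 4 °C in the dark for 5 days, and seedlings grew on soil for 11 days at 16 °C and then 21 days at 22 °C. Thus the labels do not describe how the 16 °C groups were kept. The replicates are numbered 1 and 2 in every group, called set 1 and set 2 here. Nothing in the labels says that they came from separate plants, so p-values measure the spread between these samples, which may be technical.

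Values are linear MAS5 intensities, scaled so that the trimmed mean of each array lay between 100.01 and 100.013. Array medians ran from 30.7 to 41.0, and the lower quartile was 9.60 to 11.4 on the set 1 arrays and 5.83 to 7.60 on the set 2 arrays. A green-tissue marker, RCA (Rubisco activase), read 3995 to 11959, while the root markers PYK10 and EXPA7 read 92.2 to 374 and 0.996 to 46.1. The other 7 root genes and 10 green-tissue genes looked for had no probe set named for them alone. The replicates correlated at 0.960 to 0.975 in 6 groups, but at 0.863 and 0.878 in the phyB-1 groups at 16 °C. On a score made of probe sets that differ between the times on the other arrays, the other 4 h arrays lay at -2.42 to -2.19 and the other 10 h arrays at 1.98 to 2.55. Replicate 2 of phyB-1 at 16 °C and 4 h scored 2.33 and replicate 2 of phyB-1 at 16 °C and 10 h scored -1.90, each on the side of the other time. These 2 libraries go against their labels and are called disputed. Every result is therefore given from all 16 arrays and from a second fit that differs in 2 ways: it leaves out these 2 arrays, so that only replicate 1 is left for phyB-1 at 16 °C, and it adds the replicate set as a block. Values given as with 14 arrays come from this blocked fit. Where it called a member, the same 14 arrays were also fitted without the block.

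Of the 10 members, 9 were bright enough to be tested in both fits, which kept the brightest 60% of probe sets by mean, 13648 in number. The probe set for ndhF, a large antiporter-like membrane subunit, was left out. Its intensity ran from 6.67 to 32.7 with a median of 14.8, close to the arrays' lower quartiles. In phyB-1 at 16 °C it read 23.6 ± 7.33 (SD, n = 4) against 13.1 ± 4.73 (SD, n = 4) in Ler at 16 °C, and with the filter on dim probe sets lifted this difference was 0.44 ± 0.21 (log2, SE) with an adjusted p of 1.00. Nothing can be read about ndhF from a signal at this level beyond these values.

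The other members gave clear signals. For the membrane arm, median intensities over 16 arrays were 2492 for ndhA (1915 to 3009.7), 2646 for ndhC (2171 to 3915), 3595 for ndhD (2309 to 4317), 634 for ndhE (346 to 1223) and 326 for ndhG (161 to 918). For the stromal arm they were 227 for ndhH (94.5 to 354), 6899 for ndhI (5635 to 8568), 973 for ndhJ (559 to 1345) and 655 for ndhK (350.2 to 1130.5). Levels of different probe sets cannot be ranked against each other, since each probe set binds with its own strength. The arrays that were lowest differed by gene: replicate 1 of phyB-1 at 16 °C and 10 h was the lowest of 16 for ndhK, ndhD, ndhE and ndhH, and the highest for ndhC.

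**Figure D1:**
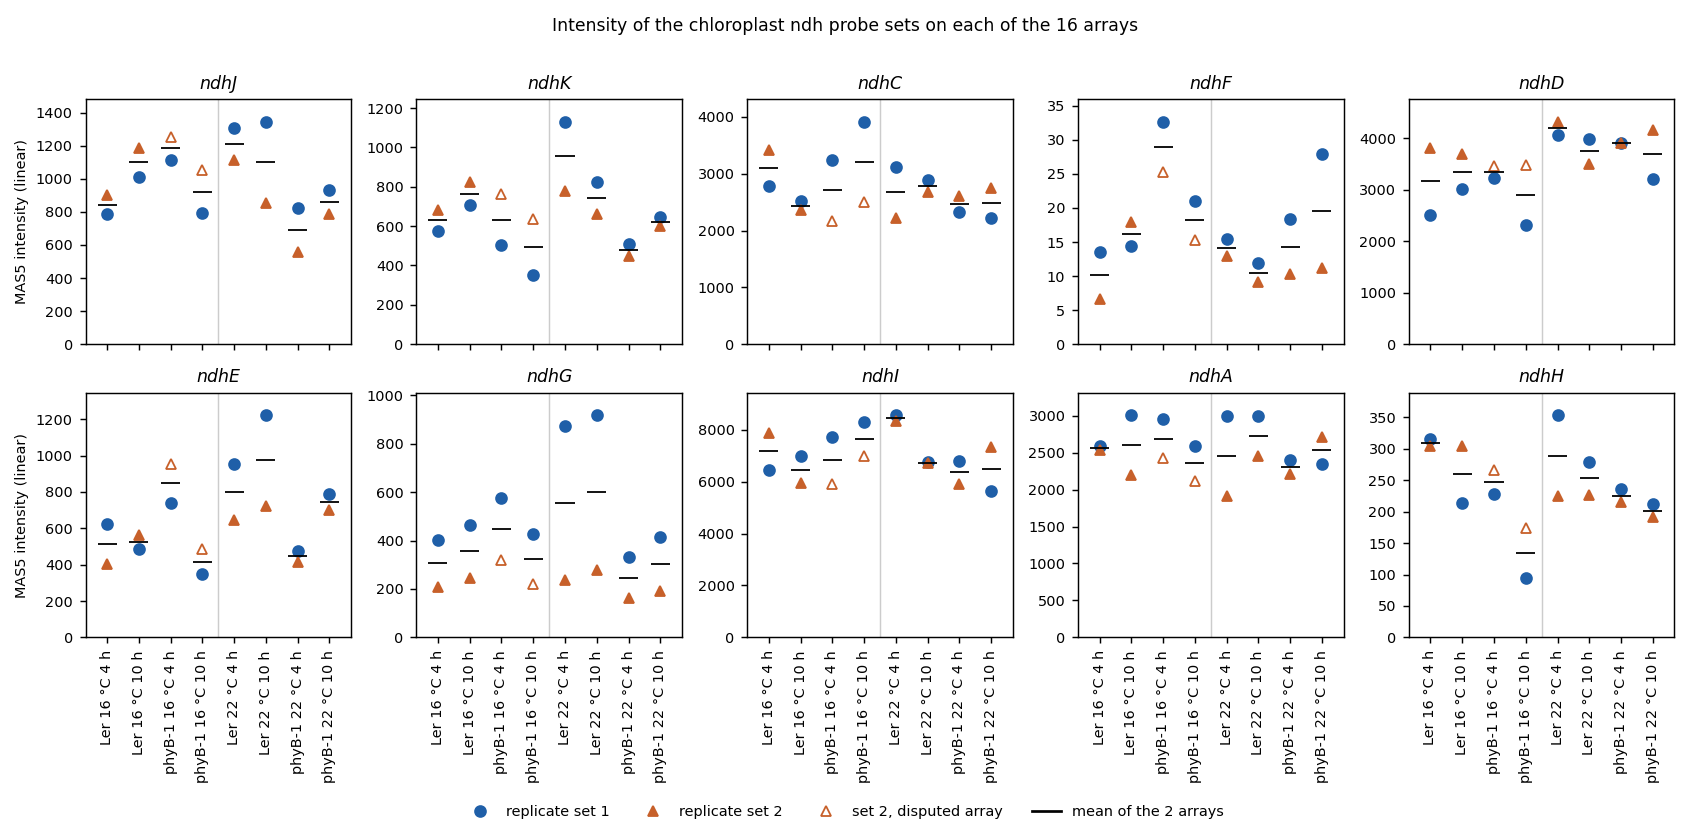
MAS5 intensity (linear axis from 0, one scale per gene) of the 10 ndh probe sets on each of the 16 arrays. Circles are set 1, triangles set 2, open triangles the 2 disputed arrays, and bars the mean of the 2 arrays of a group; at 22 °C ndhK is lower on every phyB-1 array than on any Ler array, and ndhG is lower in set 2 than in set 1 in all 8 groups.

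At 22 °C, several ndh transcripts read lower in phyB-1 than in Ler, the comparison that asks what the loss of phytochrome B does in plants labelled 22 °C. With all 16 arrays none of the 9 tested members passed an adjusted p of 0.05 (limma), where 0.0293% of all probe sets did. At an unadjusted p under 0.05 there were 3 of 9 members, where 601 of 13648 probe sets were. In the blocked 14-array fit ndhG and ndhK were called lower, where 1.25% of all probe sets were called. Both calls needed the block: without it the same 14 arrays called no member, where 0.506% of probe sets were called. All 9 members lay below 0, with a median log2 difference of -0.30, while 44 of the 59 other chloroplast probe sets lay below 0 with a median of -0.13, and the median of all probe sets was 0.02.

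The product of ndhK carries an iron-sulphur cluster at the end of the electron path of the stromal arm. In Ler at 22 °C its probe set read 1130.5 and 780.5 at 4 h and 823 and 664 at 10 h, and in phyB-1 it read 511 and 450.3 at 4 h and 646 and 599 at 10 h. The groups did not overlap; 1.28% of all tested probe sets were lower in phyB-1 in this way. The log2 difference was -0.60 ± 0.20 (SE, adjusted p = 0.849) with 16 arrays and -0.60 ± 0.13 (SE, adjusted p = 0.0282) with 14, and it was -0.73 in set 1 and -0.46 in set 2. Without the block the adjusted p with 14 arrays was 0.0944. With the block the call was kept in 8 of 14 fits that each left out 1 array, and lost without any phyB-1 array at 22 °C or either set 1 Ler array at 22 °C.

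The small membrane subunit gene ndhG moved further, but mostly in set 1. Its probe set read 873 and 236 in Ler at 4 h, and 918 and 279 at 10 h, in set 1 and set 2 respectively. The phyB-1 arrays read 331 and 161 at 4 h, and 415 and 193 at 10 h. Within each set every phyB-1 array lay below every Ler array, while across sets the groups overlapped. The log2 difference was -0.87 ± 0.47 (SE, adjusted p = 1.00) with 16 arrays and -0.87 ± 0.15 (SE, adjusted p = 0.00672) with 14, with -1.24 in set 1 and -0.50 in set 2. Without the block the adjusted p with 14 arrays was 0.593, and with it the call was lost on leaving out any of the 4 set 1 arrays at 22 °C.

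The stromal arm gene ndhJ and the membrane subunit gene ndhE had differences of similar size that did not pass. The probe set for ndhJ read 1308 and 1111 at 4 h and 1345 and 855 at 10 h in Ler, against 826 and 559 at 4 h and 933 and 786 at 10 h in phyB-1. Its difference was -0.57 ± 0.18 (SE, adjusted p = 0.816) with 16 arrays and had an adjusted p of 0.0574 with 14, and the sets gave -0.59 and -0.54. The groups overlapped through 1 array each, since the higher phyB-1 array at 10 h lay above the lower Ler array at 10 h. For ndhE, Ler arrays read 954 and 645 at 4 h and 1223 and 725 at 10 h. The phyB-1 arrays read 473 and 417 at 4 h and 790.2 and 699 at 10 h. Its difference was -0.57 ± 0.21 (SE, adjusted p = 0.870) with 16 arrays and had an adjusted p of 0.0569 with 14.

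When each phyB-1 array was set against the Ler array of the same time and set, ndhJ, ndhK, ndhE, ndhG and ndhH were lower in all 4 pairs. That is 5 of 9 tested members, where 10.9% of all probe sets and 11 of 59 other chloroplast probe sets were. The remaining members differed less: ndhH by -0.30 ± 0.20, ndhI by -0.24 ± 0.13, ndhC by -0.14 ± 0.18, ndhA by -0.08 ± 0.16 and ndhD by -0.07 ± 0.17 (log2, SE, 16 arrays). For ndhC, ndhA and ndhD the sign differed between the sets. The gene run ndhD, ndhE, ndhG, ndhI, ndhA, ndhH thus held the widest difference (ndhG) and the narrowest (ndhD) at once.

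The psaC gene, which lies between ndhD and ndhE and encodes an iron-sulphur subunit of photosystem I, differed by -0.31 ± 0.27 (SE, adjusted p = 1.00) at 22 °C with 16 arrays. Among the chloroplast neighbours psaC, ccsA, rpl32 and rps15, none of the 4 tested was called in either fit in any comparison. The ratio of the 3′ to the 5′ GAPDH control signal, a measure of RNA or labelling quality, moved with genotype here. Its log2 value was 0.596, 0.615, 0.812 and 0.787 on the phyB-1 arrays and 0.399, 0.323, 0.474 and 0.752 on the Ler arrays at 22 °C, higher in phyB-1 in all 4 matched pairs. A second control, the 3′ to 5′ actin ratio, was in the same order 3.99, 3.47, 3.49 and 3.87 in phyB-1. In Ler it was 3.26, 3.98, 3.34 and 3.53, so it was lower in phyB-1 only in the 4 h pair of set 2. The part of these ratios in the result was not tested. In whole shoots, fewer cells or chloroplasts and less RNA per cell cannot be told apart. The one-cycle labelling protocol primes from poly(A) tails, which mature chloroplast messages mostly lack, so the signal reflects the labelled portion of each transcript.

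**Figure D2:**
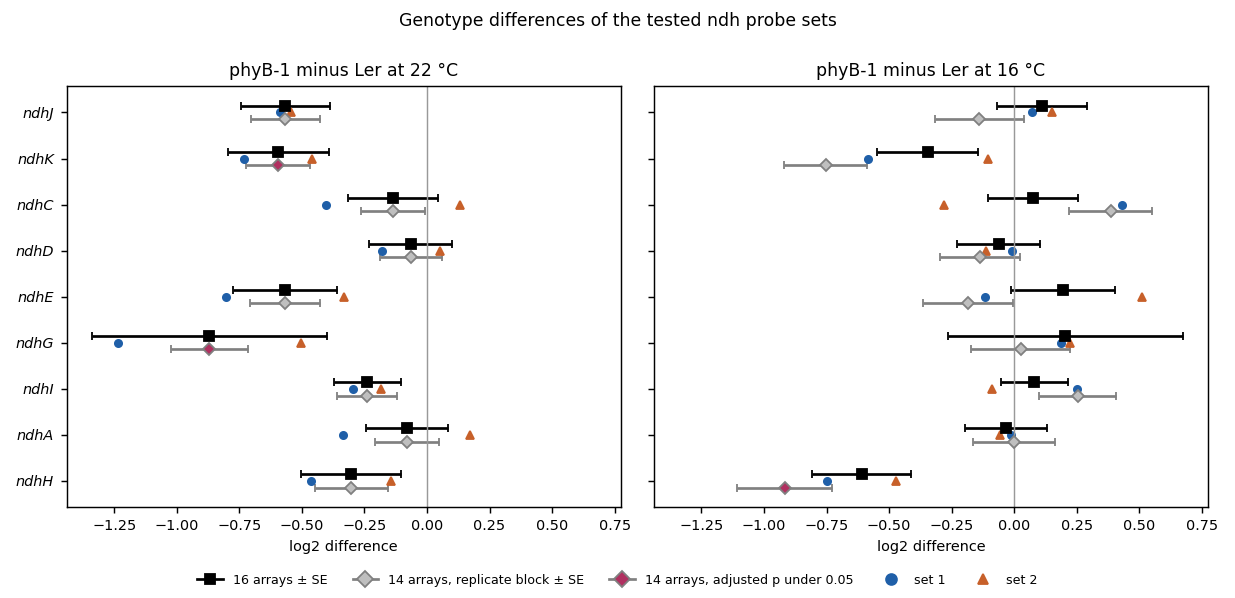
Log2 difference, phyB-1 minus Ler, of the 9 tested ndh probe sets at 22 °C (left) and 16 °C (right). Squares are the 16-array fit and diamonds the 14-array fit, both with standard errors, filled red where the adjusted p was under 0.05; small circles and triangles are set 1 and set 2 alone from all 16 arrays. At 22 °C all 9 squares lie below 0, and at 16 °C they lie on both sides.

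At 16 °C the same comparison of genotypes gave no common direction. No member of 9 was called with 16 arrays, where 0.0147% of probe sets were. At an unadjusted p under 0.05 there was 1 member, where 694 of 13648 probe sets were. With 16 arrays the median difference was 0.07 and 4 of 9 members lay below 0. Without the disputed arrays the median was -0.14 and 6 of 9 lay below 0. In the blocked 14-array fit ndhH, whose product lines the quinone pocket of the stromal arm, was called lower, where 0.352% of probe sets were. The call was kept in 2 of 12 fits that each left out 1 more array (adjusted p 0.00502 to 0.0918). Without the block no member was called, where 0.0953% of probe sets were, and ndhH had an adjusted p of 0.113. Its probe set read 315 and 305 at 4 h and 214 and 305 at 10 h in Ler. In phyB-1 it read 228 at 4 h and 94.5 at 10 h in replicate 1, and 266 at 4 h and 173 at 10 h on the disputed arrays. The phyB-1 arrays were lower than their Ler counterparts in each of the 4 pairs, as 809 of 13648 tested probe sets were, though the groups overlapped. The difference was -0.61 ± 0.20 (SE, adjusted p = 0.856) with 16 arrays and -0.92 ± 0.19 (SE, adjusted p = 0.0442) with 14.

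The 16 °C call for ndhH rests on 2 arrays of phyB-1, of which the 10 h array had the highest GAPDH ratio of all, 1.63 on the log2 scale. The actin ratio of that array was 3.17, near the low end of the 3.05 to 4.26 on the Ler arrays at 16 °C. The GAPDH ratio was higher in phyB-1 than on the matched Ler array in 3 of 4 pairs at 16 °C. Its part in the call was not tested. For ndhK the difference was -0.35 ± 0.20 with 16 arrays and -0.75 ± 0.17 (SE, adjusted p = 0.0623) with 14, so its size depended on the disputed arrays. For ndhC it was 0.07 ± 0.18 and 0.38 ± 0.17 (SE, adjusted p = 0.352). The other members lay between -0.06 and 0.20 with 16 arrays.

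Between temperatures in Ler the members with the largest differences were 2 membrane subunit genes that lie side by side, ndhE and ndhG. No member of 9 was called with 16 arrays, where 0.396% of probe sets were. At an unadjusted p under 0.05 there was 1 member, where 1330 of 13648 probe sets were. In the blocked 14-array fit ndhE and ndhG rose, where 6.93% of probe sets were called. Without the block ndhE was still called with the 14 arrays (adjusted p = 0.0392) and ndhG was not (adjusted p = 0.520), where 2.98% of probe sets were called. The GAPDH ratio was lower at 22 °C in 3 of 4 matched pairs, with 0.399 and 0.323 at 4 h and 0.474 and 0.752 at 10 h against 0.707 and 0.631 at 4 h and 0.728 and 0.531 at 10 h at 16 °C. The actin ratio at 22 °C was 3.26 and 3.98 at 4 h and 3.34 and 3.53 at 10 h. At 16 °C it was 3.09 and 3.05 at 4 h and 4.26 and 3.37 at 10 h. The part of these ratios in the result was not tested. The comparison shares its Ler arrays at 22 °C with the genotype comparison at 22 °C, so these differences are not independent of those.

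The probe set for ndhE read 622 and 402 at 4 h and 488 and 560.3 at 10 h in Ler at 16 °C, and the 22 °C arrays given above ran from 645 to 1223. The groups did not overlap; 2.56% of all tested probe sets were higher at 22 °C in this way. The log2 difference was 0.73 ± 0.21 (SE, adjusted p = 0.214) with 16 arrays and 0.73 ± 0.14 (SE, adjusted p = 0.00424) with 14, with 0.95 in set 1 and 0.51 in set 2. For ndhG the Ler arrays at 16 °C read 404 and 207 at 4 h and 464 and 247 at 10 h. Its difference was 0.60 ± 0.47 (SE, adjusted p = 0.756) with 16 arrays and 0.60 ± 0.15 (SE, adjusted p = 0.0268) with 14, with 1.02 in set 1 and 0.17 in set 2. The latter call was lost on leaving out any set 1 Ler array.

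Both genes were higher at 22 °C in all 4 pairs matched for time and set, 2 of 9 members where 11.9% of all probe sets were, so the members' share is not far above the background. The median difference of the members was 0.24, that of the other chloroplast probe sets 0.01. For ndhJ, ndhK, ndhA, ndhC and ndhH, set 1 gave a value above 0 and set 2 one below 0: ndhJ 0.56 and -0.08, ndhK 0.58 and -0.06, ndhA 0.10 and -0.12, ndhC 0.19 and -0.21, ndhH 0.26 and -0.41. The antiporter-like subunit gene ndhD differed by 0.30 ± 0.17 and the iron-sulphur subunit gene ndhI by 0.15 ± 0.13 (log2, SE, 16 arrays).

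In phyB-1, no member of 9 was called between 22 °C and 16 °C in either fit, where 0.637% of probe sets were called with 16 arrays and 5.79% with 14. At an unadjusted p under 0.05 there was 1 member with 16 arrays, where 1553 of 13648 probe sets were. With 16 arrays ndhJ differed by -0.44 ± 0.18 (SE, adjusted p = 0.368), with -0.09 in set 1 and -0.78 in set 2. The small membrane subunit gene ndhC differed by -0.53 ± 0.17 (SE, adjusted p = 0.0649) and ndhH by 0.54 ± 0.19 (SE, adjusted p = 0.0982) with 14 arrays. The value for ndhK was 0.01 ± 0.20 with 16 arrays and 0.42 ± 0.17 with 14.

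**Figure D3:**
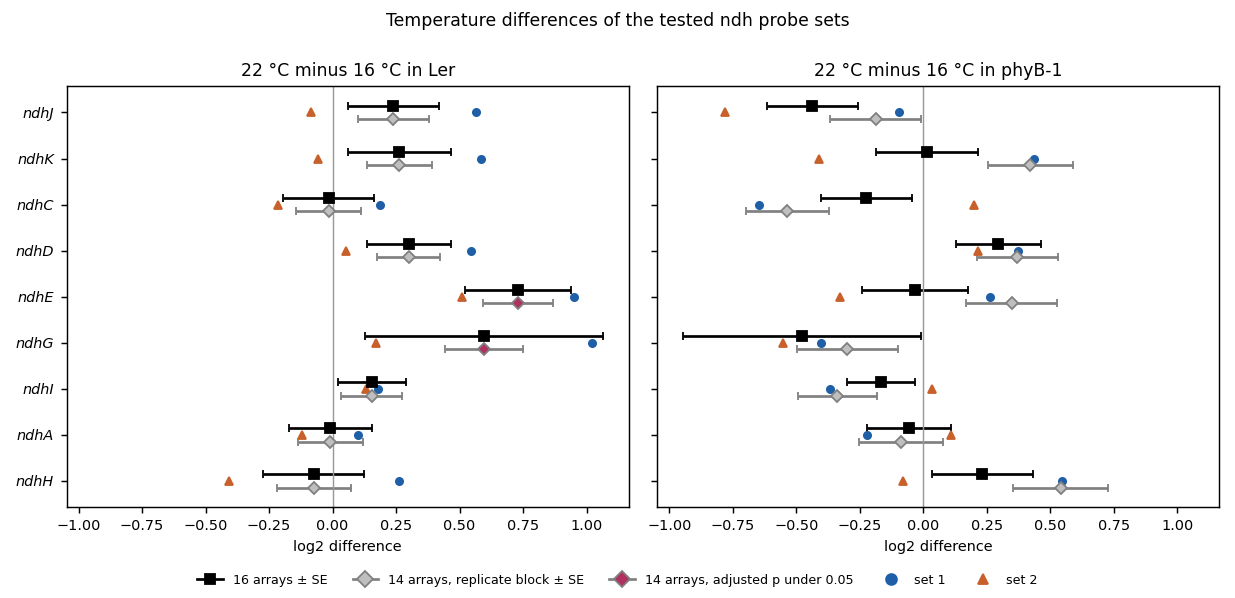
Log2 difference, 22 °C minus 16 °C, of the 9 tested ndh probe sets in Ler (left) and phyB-1 (right), with symbols as for the genotype differences: squares 16 arrays, diamonds 14 arrays, each ± SE. In Ler ndhE lies at 0.73, clear of 0 in both sets, while ndhJ, ndhK, ndhA, ndhC and ndhH change sign between the sets.

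Whether genotype and temperature acted together was tested as an interaction. No member was called in either fit, and 0% of all probe sets were called in either. With 16 arrays the interaction was -0.76 ± 0.29 for ndhE (unadjusted p = 0.0220) and -0.68 ± 0.25 for ndhJ (unadjusted p = 0.0189), the 2 members under 0.05 before adjustment, both with an adjusted p of 1.00. Of all probe sets, 321 of 13648 were under 0.05 before adjustment with 16 arrays. With 14 arrays the interaction was -0.89 ± 0.25 (log2, SE) for ndhG. The temperature responses of Ler and phyB-1 were therefore not shown to differ for any member.

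Averaged over all groups, most members moved little between 4 h and 10 h, in data where time changed many transcripts. Over all groups no member of 9 was called with 16 arrays, where 19.1% of probe sets were. At an unadjusted p under 0.05 there was 1 member, where 4286 of 13648 probe sets were. In the blocked 14-array fit 1 member, ndhH, fell, where 39.7% of probe sets were called, and it was also called without the block (adjusted p = 0.0145), where 32.9% were. Its difference, 10 h minus 4 h, was -0.36 ± 0.14 (SE, adjusted p = 0.0950) with 16 arrays and -0.43 ± 0.12 (SE, adjusted p = 0.00647) with 14. In Ler alone it was -0.21 and in phyB-1 at 22 °C -0.15, neither called. The widest gap between matched arrays was in phyB-1 at 16 °C, where replicate 1 went from 228 to 94.5 on the array with the highest GAPDH ratio. The log2 difference of this pair was -1.14. It alone stands for phyB-1 at 16 °C in the 14-array value, and the fits that left out 1 array could not drop it. The GAPDH ratio was higher at 10 h in 6 of 8 matched pairs over all groups. The actin ratio was higher in some pairs and lower in others. The part of these ratios in the fall was not tested. In set 2 of Ler at 16 °C and 22 °C the 2 times read 305 and 305, and 225 and 226. The other members lay between -0.10 and 0.04 with 16 arrays, and the median of the 9 was 0.00. These means cover groups that went opposite ways. In phyB-1 at 22 °C, ndhE, ndhJ, ndhK and ndhG were higher at 10 h in both sets. At 16 °C they were lower at 10 h in set 1. Set 2 gave the same sign by its labels, but there it consists of the disputed arrays. The fall at 16 °C thus rests on set 1 alone. The share of all probe sets with this pattern was not counted. The members ndhC, ndhD, ndhI, ndhA and ndhH did not share this pattern. For ndhE at 16 °C the log2 difference was -1.06 in set 1 (739 to 346) and -0.94 on the disputed arrays.

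In Ler alone no member of 9 was called in either fit, none even at an unadjusted p under 0.05, where 17.2% of probe sets were called with 16 arrays and 32.5% with 14. In phyB-1 at 22 °C, ndhE read 473 and 417 at 4 h and 790.2 and 699 at 10 h, and both sets gave a log2 difference of 0.72. The change was 0.72 ± 0.30 (SE, adjusted p = 0.187) with 16 arrays, where 2.45% of probe sets were called, and 0.72 ± 0.20 (SE, adjusted p = 0.0128) in the blocked 14-array fit, where 21.5% were called. Without the block it was not called with the 14 arrays (adjusted p = 0.0695), where 15.7% of probe sets were. With the block the call was lost on leaving out either set 1 array or the set 2 array at 10 h. The GAPDH ratio was higher at 10 h in both sets, 0.596 to 0.812 in set 1 and 0.615 to 0.787 in set 2, and its part in the result was not tested. For ndhK it was 0.37 ± 0.29 and for ndhJ 0.33 ± 0.25 (log2, SE, 16 arrays), neither called.

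The genotype by time interaction at 22 °C and the temperature by time interaction in Ler called no member in either fit. With 16 arrays 0% of probe sets were called in each and no member was under 0.05 before adjustment. With 14 arrays 0.00733% and 0.879% were called. Before adjustment 1 member in each was under 0.05, where 489 and 1726 of 13648 probe sets were. For ndhE, the genotype by time value was 0.46 ± 0.42 (log2, SE, 16 arrays), so its change in phyB-1 was not shown to differ from its course in Ler, where the change was 0.16 ± 0.21.

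The largest fitted difference of any member with 14 arrays was between the replicate sets. The probe set for ndhG was lower in set 2 than in set 1 in 8 of 8 groups, as 6.45% of all probe sets were, with a ratio of intensities from 0.270 to 0.558 and a median of 0.50. At 22 °C and 4 h in Ler, for example, set 1 read 873 and set 2 read 236. The difference, set 2 minus set 1, was -1.21 ± 0.13 (SE, adjusted p = 2.21e-04) with 14 arrays, where 9.09% of probe sets were called, and -1.12 with an adjusted p of 0.00320 with 16 arrays, where 7.63% were called. In size it was above the -0.87 between genotypes at 22 °C and the 0.60 between temperatures in Ler for the same gene.

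No other member was called between the sets. With 14 arrays ndhE differed by -0.34 ± 0.11 (SE, adjusted p = 0.0639), ndhA by -0.22 ± 0.10 and ndhD by 0.20 ± 0.10. The gene directly beside ndhG on one side is ndhE and on the other ndhI, whose value was 0.03 ± 0.10. For ndhJ, ndhK, ndhC, ndhE, ndhD, ndhI, ndhA and ndhH the sign of the difference varied from group to group.

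**Figure D4:**
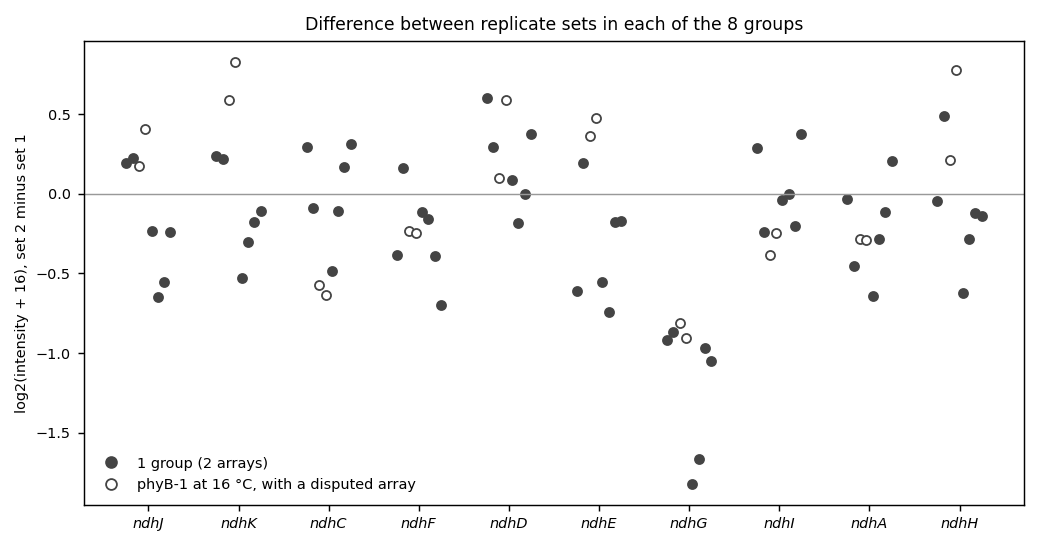
Difference in log2(intensity + 16), set 2 minus set 1, for each of the 10 ndh probe sets in each of the 8 groups; open circles are the phyB-1 groups at 16 °C, each with a disputed array. All 8 points of ndhG lie below 0, from -1.82 to -0.81, while the points of the 8 other tested members lie on both sides.

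On every array the median of the 9 tested members was the value of the ndhJ probe set. It therefore followed ndhJ and does not stand for the other members. Set against the other chloroplast probe sets on the same array, this value varied widely between arrays. The median log2(intensity + 16) of the 9 members minus that of the 59 others ran from -1.41 to -0.74 in Ler at 16 °C and from -1.22 to -0.71 in phyB-1 at 16 °C. It ran from -1.33 to -0.55 in Ler at 22 °C and from -1.97 to -0.79 in phyB-1 at 22 °C. The 4 ranges overlap. The median of the members was 9.77 to 10.4 in Ler at 22 °C and 9.17 to 9.89 in phyB-1 at 22 °C, and that of the other chloroplast probe sets was 11.0 to 11.3 and 10.7 to 11.1.

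**Figure D5:**
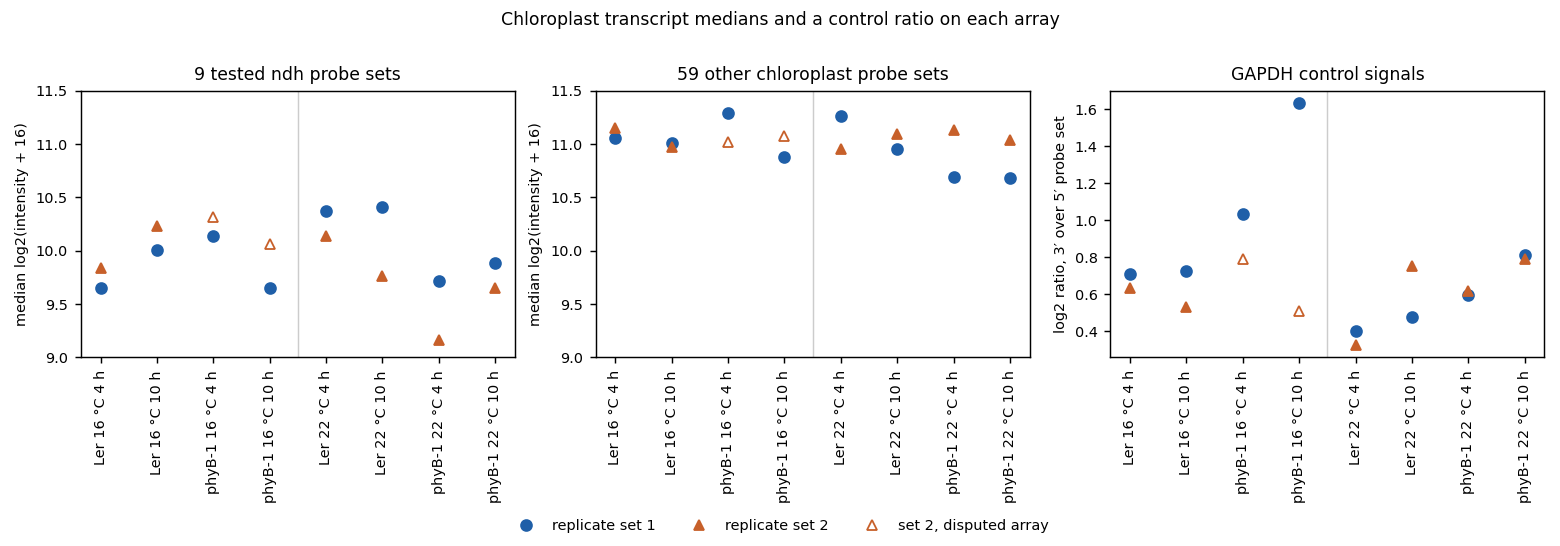
Median log2(intensity + 16) of the 9 tested ndh probe sets (left) and of the 59 other chloroplast probe sets (middle), and the log2 ratio of the 3′ to the 5′ GAPDH control signal (right), on each array; symbols as in the plot of intensities. On every array the value in the left panel is that of the ndhJ probe set. At 22 °C the GAPDH ratio of each phyB-1 array exceeds that of the Ler array of the same time and set. The highest GAPDH ratio, 1.63, is on replicate 1 of phyB-1 at 16 °C and 10 h.

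The nuclear partners of the complex were measured in part. Of 20 listed nuclear genes for NDH subunits, 4 had a probe set of their own in the platform annotation and were tested. That annotation lists no gene for 8730 probe sets, so a gene without one here may still be on the array. The tested genes were NDHL, a membrane protein that anchors the stromal arm, and NDHN of the stromal arm itself. The others were NDHS and NDHV of the part that binds ferredoxin. None was called between genotypes or temperatures in either fit. At 22 °C phyB-1 minus Ler was -0.31 ± 0.16 for NDHL, -0.30 ± 0.14 for NDHN, -0.12 ± 0.17 for NDHS and -0.08 ± 0.24 for NDHV (log2, SE, 16 arrays), each with an adjusted p of 1.00.

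With time, NDHV fell. Its probe set read 653, 473, 519 and 483 at 4 h and 164, 171, 214 and 195 at 10 h in Ler. The order is 22 °C before 16 °C and set 1 before set 2, and the times did not overlap. In Ler 1609 of 13648 tested probe sets were lower at 10 h in this way. The change was -1.44 ± 0.24 (SE, adjusted p = 0.00379) in Ler, -1.63 ± 0.34 (SE, adjusted p = 0.0352) in phyB-1 at 22 °C and -1.07 ± 0.17 (SE, adjusted p = 0.00211) over all groups with 16 arrays. In these comparisons 17.2%, 2.45% and 19.1% of probe sets were called. The disputed arrays read 227 under the label of 4 h and 503 under that of 10 h, against 544 and 349 in replicate 1. Without them the change over all groups was -1.28 ± 0.10 (SE, adjusted p = 5.64e-09). NDHS fell by 0.42 in Ler with 14 arrays only (adjusted p = 0.0463), where 32.5% of probe sets were called.

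Of 14 listed assembly and ndh RNA factors, 6 had a probe set of their own in the annotation and 5 were tested. These were CRR41, which helps to assemble the stromal arm, and CRR21, CRR22, CRR28 and OTP84. The latter are pentatricopeptide-repeat proteins that edit chloroplast transcripts, ndh ones among them. CRR21, which edits ndhD, fell by 0.57 between 4 h and 10 h in Ler (adjusted p = 0.0475 with 16 arrays, 0.00418 with 14). In that comparison 17.2% of probe sets were called with 16 arrays and 32.5% with 14. CRR22 was higher at 10 h over all groups by 0.43 ± 0.15 (log2, SE) with 14 arrays and was not called with 16. Its probe set was dim, at 16.7 to 75.8. In set 1 at 22 °C it was lower at 10 h, from 44.0 to 31.9 in Ler and from 39.7 to 30.4 in phyB-1. In every other matched pair of the 14 arrays it was higher at 10 h. CRR28, CRR41 and OTP84 were not called in any comparison, and none of the 5 was called between genotypes or temperatures. Of the 3 genes of the PGR5 route, the other branch of cyclic electron flow, PGRL1B alone was tested. It rose in Ler at 22 °C with 14 arrays, by 0.50 ± 0.13 (SE, adjusted p = 0.0255), where 6.93% of probe sets were called. With 16 arrays it was not called (adjusted p = 0.603). It was lower in set 2 than in set 1 by 0.54 on the log2 scale with 14 arrays. Of 20 listed genes of plastid transcription, 1 had a probe set of its own in the annotation, and it was too dim to test. Of 6 listed genes of plastid RNA turnover, none had a probe set assigned to it alone in the annotation.

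The members' mean standardised profile gave equal weight to all 10, including the dim ndhF and also ndhG, which differed between the sets. Over the 16 arrays the probe sets most like it were those for UGT73B5 (Pearson's r 0.83), AT3G10780 (0.81), AT4G19580 (0.80), AT3G45880 (0.79) and AT5G34820 (0.79). These arrays share their sets and labelling, so the values are a description. Of the 5, 4 were dim, with median intensities from 1.72 to 3.26, and AT3G45880, at 23.8, was bright enough for the fits.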

How the data were processed

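The 16 arrays were Affymetrix ATH1 (1 colour). The deposited values are linear intensities, which the authors made with MAS5 and GCOS (tools named, without versions, per the submitters' processing notes); no genome build was used. Of 22810 probe sets 64 controls were left out, and of the rest 13513 had 1 gene in the platform annotation, 503 several and 8730 none listed. Log2(intensity + 16) was fitted with limma 3.58.1 in R 4.3.3, 1 mean per group, with eBayes (trend = TRUE) and Benjamini-Hochberg adjustment over the 13648 probe sets in the upper 60% by mean; calls have an adjusted p under 0.05. Fold changes are on that scale and understate dim genes. The 16-array fit has 8 residual degrees of freedom. The 14-array fit leaves out the 2 disputed arrays, adds the replicate number as a block and has 5. Same-numbered replicates deviated together (correlation over 0.1) in 15 of 15 pairs of the 6 groups that hold no phyB-1 plants at 16 °C and in 27 of 28 pairs over all groups; the labels do not say what a number shares. The fit was tested on simulated data. The text names every member, listed genes called in either fit, psaC, and the 5 most similar probe sets. Members, lists, the disputed arrays and the tests were chosen with earlier results of these data known. Gene order came from the TAIR10.1 RefSeq table. The number of arrays limits precision. Sequences were not used here. The alternatives are in the closing section.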

Additional observations from a re-analysis of the deposited data

How the results depend on the processing

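With all 16 arrays no member was called in any of the 10 comparisons, and that held under offsets of 1 and 64, without the filter, with the upper 40% of probe sets, quantile normalization, median centring, no intensity trend and the replicate block, which gave 0 members in each. Member counts moved in these cases. At 22 °C, phyB-1 against Ler gave 2 with 14 arrays and the block, and 2 with the block and the 6 groups left when phyB-1 at 16 °C is dropped, an alternative chosen after seeing the data. At 16 °C the genotypes gave 1 with 14 arrays and the block. Temperature in Ler gave 2 with 14 arrays and the block, 1 without the block and 2 with the 6 groups. Time over all groups gave 1 with 14 arrays, with or without the block, and 0 to 1 when each array was left out, the 1 being ndhH without replicate 2 of phyB-1 at 16 °C and 10 h. Time in phyB-1 at 22 °C gave 1 with 14 arrays and the block, 1 with the 6 groups, and 1 with only the comparison's groups. The cause was not tested. Of 2466 member values under alternatives 169 changed sign, none of them called. When each of the 14 arrays was left out in turn, also chosen after seeing the data, with the block kept, ndhE in Ler kept its temperature call in 14 of 14 fits (adjusted p 7.23e-04 to 0.0417), ndhH its call for time in 12 of 12 (5.74e-04 to 0.0205; the lone phyB-1 arrays at 16 °C cannot be left out) and ndhG its call between sets in 14 of 14. The genotype call at 22 °C was kept in 10 of 14 fits for ndhG (0.00422 to 0.0739), lost without any of the 4 set 1 arrays at 22 °C, and in 8 of 14 for ndhK (0.0165 to 0.190), lost without any phyB-1 array at 22 °C or either set 1 Ler array there. The call of ndhG for temperature in Ler was kept in 10 of 14 (0.00993 to 0.176), lost without any set 1 Ler array. That of ndhE for time in phyB-1 was kept in 11 of 14 (0.00415 to 0.144), and that of ndhH at 16 °C in 2 of 12 (0.00502 to 0.0918).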
